A study of Mus musculus with 19 samples.

Results

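Control cultures of a single embryonic stem cell line, sampled 4, 5 and 6 days after the cytokine LIF was withdrawn, are described by the genes that rose, fell or lay highest at day 5. They are the 4 control hairpin libraries of the CJ9 line among 19 libraries in all, chosen by their labels for line, hairpin and day and by no measured value. CJ9 is a mouse embryonic stem cell line, labelled with the strain 129S4/SvJae, and every library carried a control short hairpin (shCtrl), set against a knockdown. The day-4 library was the control of an EVX1 knockdown, the 2 day-5 libraries were the controls of a Fendrr knockdown, and the day-6 library was the control of an Lhx1os knockdown. Each day therefore comes from a different experiment, and day and experiment cannot be told apart. Cells were kept in serum-containing medium without LIF, and polyadenylated RNA was made into stranded libraries. The 5 knockdown libraries of the same experiments, with hairpins against EVX1 (2 at day 4), Fendrr (2 at day 5) and Lhx1os (1 at day 6), are set beside the controls below. Other libraries of the 19 are of CJ7 cells at day 4, with control or Evx1as hairpins. The rest are of 46c cells at day 4 with retinoic acid, with control, Nr2f1as, Sox21os or Pou3f3os hairpins. Paired libraries of these other lines and cultures also enter the spread behind the p-values. The study asked what long non-coding RNAs transcribed beside developmental genes, and some of those genes, do during differentiation. The labels do not say that numbered libraries came from separate cultures, and the p-values below therefore rest on a spread between libraries that may be technical.

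Embryonic stem cells are held in an undifferentiated state by LIF, which acts through Stat3, and by transcription factors such as Pou5f1, Sox2 and Nanog. When LIF is removed in serum, cells pass through a state like the epiblast, and part of the culture then turns on genes of the primitive streak, the structure of the gastrulating embryo from which mesoderm and endoderm arise. Wnt, Nodal and FGF signals maintain streak genes in the embryo, whereas BMP signals act on cells that leave the posterior streak and form lateral plate and extraembryonic mesoderm.

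The 3 marker genes took different courses (plot of levels in the controls by day). T, or Brachyury, the T-box factor of the streak and nascent mesoderm (mm9 chromosome 17, 8627288 to 8635361), had 326 FPKM at day 4, 114 and 128 FPKM in the day-5 libraries and 20.9 FPKM at day 6. FPKM are fragment counts scaled to transcript length and to the size of the library. Each later day lay below the one before, with the day-5 pair close together. The difference on the log2(FPKM + 1) scale was -1.42 ± 0.83 (SE) for day 5 minus day 4 and -2.47 ± 0.83 for day 6 minus day 5, and neither passed the threshold of 0.05 (limma adjusted p = 0.33 and 0.13). Pou5f1, the POU factor of pluripotent cells (mm9 chromosome 17, 35645752 to 35647722), had 587, 287, 271 and 166 FPKM in the same order of libraries. Its order by day was that of T, but it was still abundant at day 6, and its differences of -1.07 ± 0.76 and -0.74 ± 0.76 were not called (limma adjusted p = 0.43 and 0.65). Hand1, a basic helix-loop-helix factor of lateral and extraembryonic mesoderm and of trophoblast (mm9 chromosome 11, 57642215 to 57645649), had 13.7 FPKM at day 4, 118 and 142 FPKM at day 5 and 204 FPKM at day 6. Both day-5 libraries lay far above day 4, and Hand1 rose by 3.15 ± 0.31 at this step (limma adjusted p = 0.000771). The difference of 0.65 ± 0.31 at the second step was not called (limma adjusted p = 0.27). These cultures are mixed, and in bulk RNA a change in the number of cells of a type and a change in RNA per cell cannot be told apart.

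**Figure D1:**
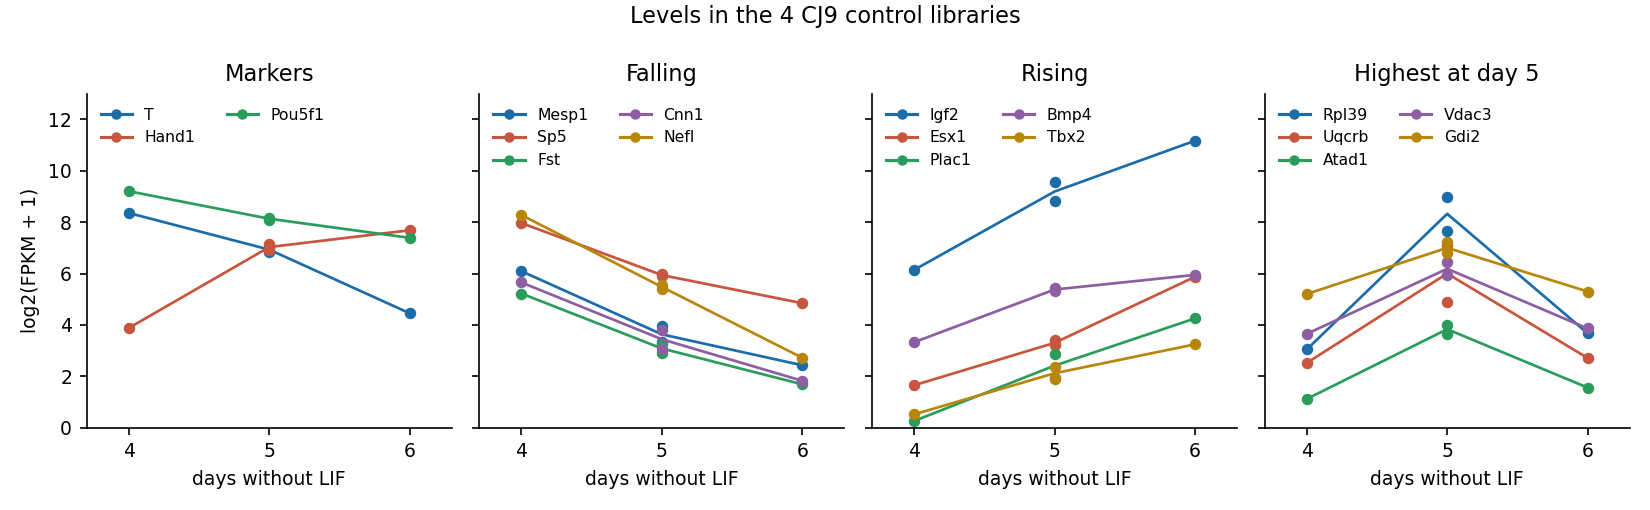
Level of named genes, as log2(FPKM + 1), against days without LIF in the 4 CJ9 control libraries; each point is a library and each line joins day means. T is lower and Hand1 higher at each later day, whereas Rpl39 stands high only in the 2 day-5 libraries.

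The 250 bases upstream of a listed start are shown from RefSeq for T, the streak marker, and for Igf2 and Esx1. They are read 5′ to 3′ on the gene's own strand (GRCm38.p6, a different build from the positions of the table). Igf2 and Esx1 had the largest day 6 minus day 4 differences among gene-list members of the rising and falling classes, defined below, with a promoter. Nefl differed more but had none. For Igf2 4 promoters are listed, and the first is shown. Capitals mark bases that match a motif searched on both strands; the motifs were TCACACC (T-box factors), CTTTGAT (Tcf/Lef), AGATAAG (zinc finger factors such as Gata2), TAATTA (homeodomain factors), GGGCGG (the GC box), CCAAT (the box of that name) and TATAAA (the TATA box).
T, chr17:8434173-8434422 (+ strand): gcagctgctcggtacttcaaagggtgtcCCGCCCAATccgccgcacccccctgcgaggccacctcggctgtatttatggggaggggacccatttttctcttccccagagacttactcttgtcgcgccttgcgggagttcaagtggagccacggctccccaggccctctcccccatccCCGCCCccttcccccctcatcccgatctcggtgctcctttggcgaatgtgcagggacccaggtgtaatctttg
Igf2, chr7:142666817-142667066 (minus strand): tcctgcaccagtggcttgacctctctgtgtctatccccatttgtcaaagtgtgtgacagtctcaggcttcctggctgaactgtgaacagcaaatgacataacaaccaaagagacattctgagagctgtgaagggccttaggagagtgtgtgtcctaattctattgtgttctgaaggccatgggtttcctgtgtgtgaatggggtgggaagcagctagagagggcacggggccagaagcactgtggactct
Esx1, chrX:137120327-137120576 (minus strand): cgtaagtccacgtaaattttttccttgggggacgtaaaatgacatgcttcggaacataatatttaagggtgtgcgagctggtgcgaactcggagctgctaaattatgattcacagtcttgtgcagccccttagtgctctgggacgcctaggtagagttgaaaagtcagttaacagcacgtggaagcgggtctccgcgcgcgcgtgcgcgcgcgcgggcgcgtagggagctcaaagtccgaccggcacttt
The window of T holds 2 GC boxes on the opposite strand and 1 CCAAT box, which overlaps a GC box. The windows shown for Igf2 and Esx1 hold none of these letters, and the other listed Igf2 promoters are not shown. Across the 445 promoters of rising genes found in the table, the T-box letters occurred in 2.25%, against 3.59% of the 167 promoters of falling genes and 3.33% of all 32851. The Tcf/Lef letters occurred in 1.57% of rising and 3.59% of falling promoters, against 3.21% of all. Gata letters occurred in 0.899% and 0.599%, against 2.74% of all, and homeodomain letters in 1.35% and 1.80%, against 4.84% of all. The GC box, CCAAT box and TATA box occurred in 66.3%, 34.4% and 6.07% of rising promoters, 57.5%, 31.1% and 5.99% of falling promoters and 32.7%, 33.9% and 12.4% of all. Genes in neither class had shares of 2.52%, 2.21%, 1.21% and 1.99% for the T-box, Tcf/Lef, Gata and homeodomain letters, and 64.5%, 37.3% and 5.49% for the other 3 motifs. A match is a run of letters and not a site shown to be bound.

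Summed FPKM lay between 591594 and 621535 in the 4 controls, and 12255 to 12825 entries reached 1 FPKM. Absolute depth is not known from these values; steps between low loci put the other 3 libraries at 0.946 to 1.21 times the depth of the day-4 library, although no more than 19.1% of the loci compared fell near such a step. An unnamed group of 3 abundant loci took 7.35% of the day-4 total, 4.33% and 2.34% at day 5 and 3.94% at day 6. The test covered 14942 entries that reached 1 FPKM in 2 or more of the 19 libraries. On these limma called 887 higher at day 5 than at day 4 (5.94%) and 206 lower (1.38%), against 695 higher and 330 lower with libraries rescaled by the median ratio. Between day 6 and day 5, 240 were higher (1.61%) and 300 lower (2.01%). Counts of called list members below are to be read beside these shares of all entries. The median difference over all tested entries was 0.10 for day 5 minus day 4, -0.03 for day 6 minus day 5 and 0.06 for day 6 minus day 4. Leaving out day-5 replicate 1 or 2 gave 551 or 406 calls for the first step, against 1093 in all, and 381 or 117 for the second, against 540. With the spread taken from the 9 CJ9 libraries alone, 124 and 13 calls were made, and of the 56 named second-step calls that of Nefl alone was kept.

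The size of change was also described without a test. Of 9465 entries that reached 5 FPKM in a control, 770 were at least 2-fold higher at day 6 than at day 4 in FPKM + 1 (8.14%) and 333 at least 2-fold lower (3.52%). The 2 day-5 libraries, which share a day and an experiment, differed 2-fold or more at 101 entries (1.07%). By fixed rules, 652 entries followed a rising order (6.89%; day 4 below both day-5 libraries, day 6 above both and at least 2-fold above day 4), and 262 were their mirror image (2.77%). A further 79 lay at least 2-fold higher in both day-5 libraries than at day 4 and at day 6 (0.835%), and 0 lay at least 2-fold lower (0%). The share of all entries in each class is the yardstick for class counts of list members below. These classes are called rising, falling and day-5-high below. They were cut from the control values themselves, so the calls of their members add nothing to them: 176 rising entries were called higher at the first step and 131 at the second, 56 and 34 falling entries were called lower, and 393 and 183 were called at neither.

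**Figure D2:**
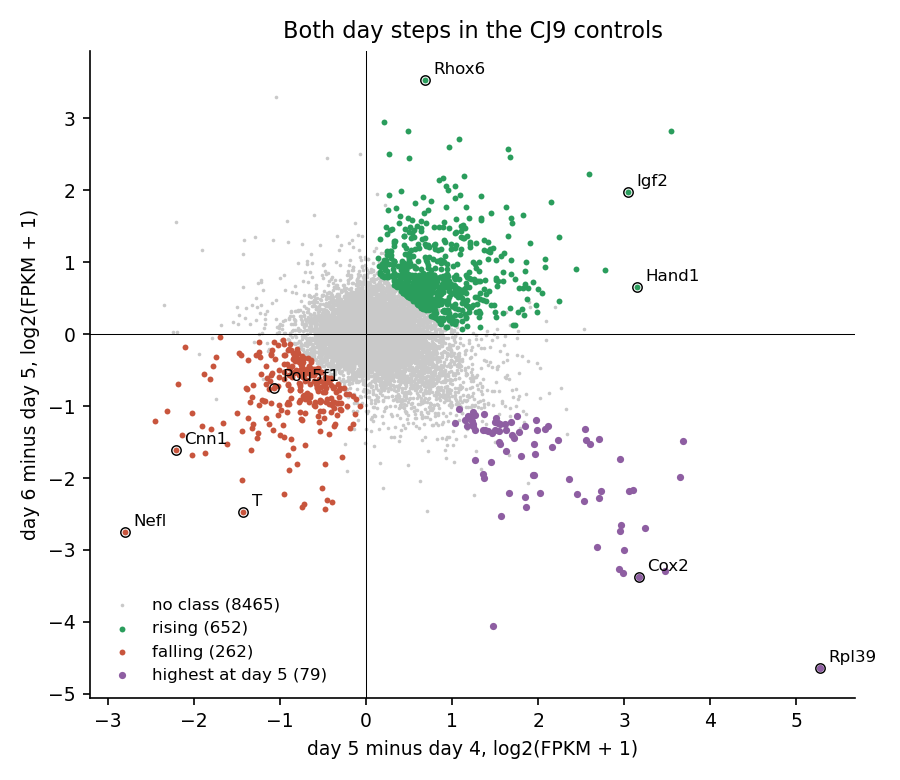
Day 6 minus day 5 against day 5 minus day 4, both on the log2(FPKM + 1) scale, for 9458 entries of the CJ9 controls that reached 5 FPKM in 1 control and were tested; each point is an entry, coloured by class. Igf2 and Hand1 lie far to the right among the 652 rising entries, Nefl and T at the lower left among the 262 falling ones, and Rpl39 at the lower right among the 79 that are high at day 5.

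Primitive streak genes made up the list with the lowest medians at both steps. Of 24 tested members, 3 fell at day 5 against day 4 and none was called higher, with a median of -0.90 beside 0.10 for all entries; at day 6 against day 5 none was called, with a median of -0.84 beside -0.03. Of 22 members that reached 5 FPKM, 15 were in the falling class and 2 in the rising class. Mesp2, a helix-loop-helix factor of nascent and presomitic mesoderm, had 8.55 FPKM at day 4, 1.92 and 1.29 FPKM at day 5 and 0.765 FPKM at day 6. All later libraries lay well below day 4, and it fell by 1.89 at the first step (limma adjusted p = 0.00358). Snai1, a zinc finger repressor of epithelial genes, had 73.0, 30.1, 29.1 and 33.96 FPKM in the order of days and fell by 1.27 at the first step (limma adjusted p = 0.034), with no further decline. Axin2, a negative-feedback target of Wnt signalling, had 35.6, 16.2, 19.8 and 14.5 FPKM and fell by 0.95 (limma adjusted p = 0.042). Mesp1, Eomes and Mixl1, transcription factors of streak and nascent mesoderm, followed the same order without a call. Mesp1 had 67.1, 14.5, 8.98 and 4.40 FPKM, Eomes 79.6, 49.7, 38.6 and 13.9 FPKM, and Mixl1 82.1, 39.3, 48.5 and 11.1 FPKM. The CJ7 day-4 control, from another embryonic stem cell line, had 143 FPKM of T, 2.11 FPKM of Mesp2, 6.77 FPKM of Mesp1 and 28.8 FPKM of Snai1. With it in place of the CJ9 library the call of Mesp2 was lost, and 12 of its 16 alternatives kept the call (limma adjusted p of 0.00245 to 0.519); of the 85 named first-step calls 61 were kept, 20 lost, Axin2 among them, and 4 reversed. Against that library in place of the CJ9 one, the day-5 difference was 0.68 for Mesp1 and 0.042 for Snai1, both opposite in sign to the values above.

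Genes of the Wnt, Nodal and FGF signals had calls in both directions or none. Among Wnt genes, Axin2 and Fzd10, a receptor (47.5 FPKM at day 4, 24.6 and 24.0 FPKM at day 5, 19.8 FPKM at day 6), were the 2 of 29 tested members that fell at the first step, Apcdd1, a Wnt inhibitor, was called higher and none was called at the second; 9 of 21 members at 5 FPKM were in the falling class and 2 in the rising class. Sp5, a zinc finger factor induced by Wnt, had 248, 62.1, 58.7 and 27.8 FPKM, and the ligands Wnt3 and Wnt8a had 43.1, 25.6, 24.1 and 11.2 FPKM and 12.9, 4.59, 3.34 and 1.31 FPKM. Sp5 differed by -2.02 ± 0.62 at the first step and was not called (limma adjusted p = 0.073). The medians of the whole Wnt list, -0.11 and -0.08, stood beside 0.10 and -0.03 for all entries. Of 16 Nodal pathway genes none was called at either step, and of 15 at 5 FPKM 4 were in the falling class and 3 in the rising class. Nodal itself had 61.1, 36.5, 29.2 and 18.7 FPKM, and its co-receptor Tdgf1 221, 123, 105 and 41.8 FPKM. Cfc1, a second Nodal co-receptor, ran the other way with 3.85, 35.3, 13.4 and 57.5 FPKM. The day-5 libraries of Cfc1 differed by more than 2-fold, and its difference of 2.24 ± 0.66 was not called (limma adjusted p = 0.067). In the FGF pathway 2 of 25 tested members fell and 2, Fgfr2 and the ligand Fgf10, rose at the first step. Over all entries 1.38% fell and 5.94% rose at that step. The receptor Fgfr3 rose at the second step. Of 20 members at 5 FPKM 6 were in the falling class and 4 in the rising class, beside 2.77% and 6.89% of all. Dusp6, the phosphatase that feeds back on ERK, had 75.0, 24.7, 34.8 and 15.5 FPKM and fell by 1.32 (limma adjusted p = 0.0101), and Etv4, an ETS factor induced by FGF, had 29.8, 11.5, 13.1 and 6.04 FPKM and fell by 1.21 (limma adjusted p = 0.049). Fgfr2, a receptor, rose by 1.51 ± 0.36 (limma adjusted p = 0.031), with 1.28, 5.88, 5.14 and 12.3 FPKM.

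Pluripotency genes divided by list. None of 12 core pluripotency genes was called at either step; 4 were in the falling class and none in the rising class. Sox2 had 36.0, 50.4, 34.9 and 48.0 FPKM in the order of days, and Nanog 77.2, 84.9, 60.4 and 33.7 FPKM. Among 12 tested primed epiblast genes 8 of the 10 at 5 FPKM were in the falling class, and the medians were -0.60 at both steps. Sox3, an SRY-box factor, had 5.48 FPKM at day 4, 5.13 and 4.53 FPKM at day 5 and 1.46 FPKM at day 6, and was the only member called, falling by 1.24 at the second step (limma adjusted p = 0.0059). Fgf5, the FGF ligand that marks the epiblast, had 24.6, 13.8, 8.39 and 3.96 FPKM, and Otx2, a homeobox factor, 14.2, 11.3, 6.61 and 4.27 FPKM.

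Naive pluripotency genes, which mark the state of the inner cell mass, mostly lay higher at day 5 than at day 4. Of 16 tested members 4 rose at the first step and none fell, with a median of 1.07; at the second step the median was 0.16 and 1 fell. Dppa3, a maternal-effect protein also expressed in germ cells, had 0.721 FPKM at day 4, 10.2 and 7.81 FPKM at day 5 and 9.47 FPKM at day 6. The 3 later libraries all stood above day 4, and Dppa3 rose by 2.53 ± 0.37 (limma adjusted p = 0.0047). Tcl1, a coactivator of the kinase Akt, had 1.17, 7.40, 6.09 and 11.1 FPKM and rose by 1.83 ± 0.46 (limma adjusted p = 0.037). Prdm14, a regulator of naive and germ cells, rose to 3.62 and 3.26 FPKM at day 5, against 0.725 FPKM at day 4 (limma adjusted p = 0.049). Fbxo15, an F-box protein, had 1.99, 10.4, 10.8 and 3.04 FPKM, rising by 1.96 ± 0.24 and then falling by 1.52 (limma adjusted p = 0.0022 and 0.0095). Esrrb and Tfcp2l1, transcription factors of the naive network, had 6.10, 20.2, 18.1 and 24.0 FPKM and 3.75, 12.3, 12.8 and 15.0 FPKM and were not called. Klf5 and Gbx2 of this list lay lower in both day-5 libraries than at day 4, with 169, 134, 155 and 145 FPKM and 4.94, 2.59, 3.20 and 1.84 FPKM. Dppa5a, its most abundant member, had 268, 297, 201 and 296 FPKM. In the CJ7 day-4 control Tcl1 had 8.88 FPKM and Esrrb 28.4 FPKM, and against that library the day-5 differences turned to -0.36 and -0.55. Zfp42, Klf2 and Klf4 of the list, with 67.4, 96.0 and 10.4 FPKM there, also lay above both CJ9 day-5 libraries. Dppa3 and Tfcp2l1, with 0.947 and 8.03 FPKM, lay below both, and other members lay on either side.

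Neurofilament genes, which encode intermediate filaments of neurons, were among the entries that fell. Nefl, the neurofilament light chain (mm9 chromosome 14, 68701941 to 68705794), had 308 FPKM at day 4, 46.5 and 40.9 FPKM at day 5 and 5.60 FPKM at day 6. It had the largest day 6 minus day 4 difference of the falling class, -5.55, and fell by 2.79 and again by 2.76 (limma adjusted p = 0.000622 and 0.00109). Nefm, the medium chain, had 33.8, 12.2, 14.9 and 4.31 FPKM and fell at both steps, by 1.26 and 1.45 (limma adjusted p = 0.00865 and 0.00718). Ina, the related protein internexin, had 16.9, 4.32, 4.41 and 3.29 FPKM and fell by 1.74 at the first step (limma adjusted p = 0.000778). These were the 3 of 14 tested neuron genes that fell at the first step and, for Nefl and Nefm, the 2 that fell at the second; the list's medians were -0.26 and -0.18. In the neural progenitor list 2 of 22 tested members fell at the first step and 1, Sox3, at the second, beside 1.38% and 2.01% of all entries. The medians were -0.06 and -0.04, and 4 of the 7 at 5 FPKM were in the falling class, beside 2.77% of all. Nes, the intermediate filament nestin of neural progenitors and other cells, had 51.1, 12.98, 18.4 and 6.02 FPKM and fell by 1.66 at the first step (limma adjusted p = 0.034), and En1, a homeobox factor of the midbrain and hindbrain, had 2.76, 0.986, 1.32 and 0.867 FPKM and fell by 0.81 (limma adjusted p = 0.044). Neither call held without day-5 replicate 1 or without replicate 2. The neural markers Sox1 and Pax6 of this list stayed at or below 0.518 FPKM in the 4 libraries.

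Smooth muscle and cardiac genes of the contractile list moved in both directions. Cnn1, calponin, had 49.3 FPKM at day 4, 7.47 and 12.97 FPKM at day 5 and 2.55 FPKM at day 6, and fell by 2.21 at the first step (limma adjusted p = 0.015). Myl9, a regulatory myosin light chain, had 81.9, 15.2, 24.8 and 5.40 FPKM and fell by 2.02 and 1.68 (limma adjusted p = 0.013 and 0.04). Actc1, cardiac actin, had 15.6, 2.15, 2.59 and 0.607 FPKM and fell by 2.31 (limma adjusted p = 0.021). Against these 3, the troponins Tnnt1, Tnnt2 and Tnni1 rose at the first step; Tnni1 had 0.105, 1.43, 1.41 and 5.93 FPKM and rose again at the second (limma adjusted p = 0.0099). Myl4, an atrial and embryonic myosin light chain, had 0.585, 3.36, 1.64 and 11.97 FPKM and rose at the second step by 1.94 ± 0.35 (limma adjusted p = 0.018). Over 22 tested members the medians were 0.13 and 0.09.

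Immediate early genes, which respond within minutes to serum and other stimuli, included 3 that fell at the first step. Egr1, a zinc finger factor, had 36.0 FPKM there, against 7.13, 6.51 and 6.99 FPKM in the later libraries, and fell by 2.24 at day 5 (limma adjusted p = 0.00259). Egr3 had 6.95, 0.688, 0.794 and 0.772 FPKM and Atf3 30.3, 8.83, 8.52 and 8.43 FPKM, and both fell at the first step (limma adjusted p = 0.00222 and 0.00486). The 3 later libraries were alike for each of these genes. Of 18 tested members these 3 fell and none rose at the first step, with a median of -0.66, and Fos alone rose at the second. Jun and Jund, AP-1 subunits, did not stand highest at day 4, with 25.0, 18.7, 25.2 and 31.3 FPKM and 70.6, 71.1, 75.8 and 124 FPKM. In the CJ7 day-4 control Egr3 had 0.985 FPKM, and with that library as day 4 the calls of Egr3 and Atf3 were lost.

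Lateral and cardiac mesoderm held the most called members of any list. At day 5 against day 4, 11 of 25 tested members rose and none fell, with a median of 0.82 beside 0.10 for all entries. At day 6 against day 5, 6 rose and none fell, with a median of 0.44; 11 of 19 members at 5 FPKM were in the rising class and none in the falling class. Hand2, the relative of Hand1 that acts in the heart and limb, had 0.747 FPKM at day 4, 3.31 and 3.50 FPKM at day 5 and 12.52 FPKM at day 6. It rose at each step, by 1.33 ± 0.29 and 1.62 ± 0.29 (limma adjusted p = 0.023 and 0.018). Tbx20, a T-box factor of the early heart, had 1.84, 8.48, 8.42 and 15.0 FPKM and rose by 1.73 ± 0.18 and 0.76 ± 0.18 (limma adjusted p = 0.000929 and 0.043). Tbx2, a T-box repressor, had 0.437, 4.13, 2.69 and 8.49 FPKM and rose at each step (limma adjusted p = 0.0046 and 0.03), as did Snai2, a zinc finger repressor, with 0.240, 1.12, 1.77 and 4.84 FPKM (limma adjusted p = 0.044 and 0.026). Foxf1, the forkhead factor of lateral plate mesoderm, had 2.46, 10.1, 10.9 and 11.5 FPKM and rose by 1.73 ± 0.29 at the first step (limma adjusted p = 0.0087). Fendrr, the non-coding RNA beside Foxf1, had 0.179, 1.10, 1.49 and 0.641 FPKM and rose by 0.96 ± 0.20 (limma adjusted p = 0.018). Prdm6, a repressor expressed in smooth muscle precursors, rose to 19.1 and 15.3 FPKM at day 5, against 3.97 FPKM at day 4. Irx3, an Iroquois homeobox factor, and Smarcd3, a heart-enriched chromatin remodelling subunit, were called at the second step, with 5.80 and 10.9 FPKM at day 6, against 1.51 and 1.08 FPKM and 3.47 and 3.03 FPKM at day 5. Nkx2-5, the cardiac homeobox factor, did not exceed 1.62 FPKM in any of the 4 libraries.

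BMP ligands were among these rises. Bmp4 had 9.05 FPKM at day 4, 42.2 and 39.0 FPKM at day 5 and 60.7 FPKM at day 6. The 3 later libraries lay at least 4 times as high as day 4, and Bmp4 rose by 2.05 ± 0.27 (limma adjusted p = 0.00264). Bmp5 had 0.149, 2.32, 2.23 and 2.94 FPKM and rose by 1.51 ± 0.18 (limma adjusted p = 0.00171). Bmp2 rose by 0.91 ± 0.25 (limma adjusted p = 0.04997), with 1.90, 4.89, 4.04 and 4.88 FPKM. Smad6, the inhibitory Smad that BMP induces, had 5.36, 17.3, 14.2 and 22.0 FPKM and rose by 1.39 ± 0.19 (limma adjusted p = 0.0029). Bmpr1a, a type I receptor, rose by 1.24 ± 0.23 (limma adjusted p = 0.011). Fst, follistatin, a secreted protein that binds activin and some BMPs, was the member that fell, with 36.3, 6.53, 8.58 and 2.23 FPKM and a first-step fall of 2.13 (limma adjusted p = 0.018). Of 27 tested pathway members 5 rose and 1 fell at the first step, beside 5.94% and 1.38% of all entries. None was called at the second, and the medians were 0.25 and 0.24. The direct target Id1 had 129, 88.5, 73.4 and 134 FPKM and Msx2 30.2, 49.2, 53.5 and 82.6 FPKM, neither called.

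**Figure D3:**
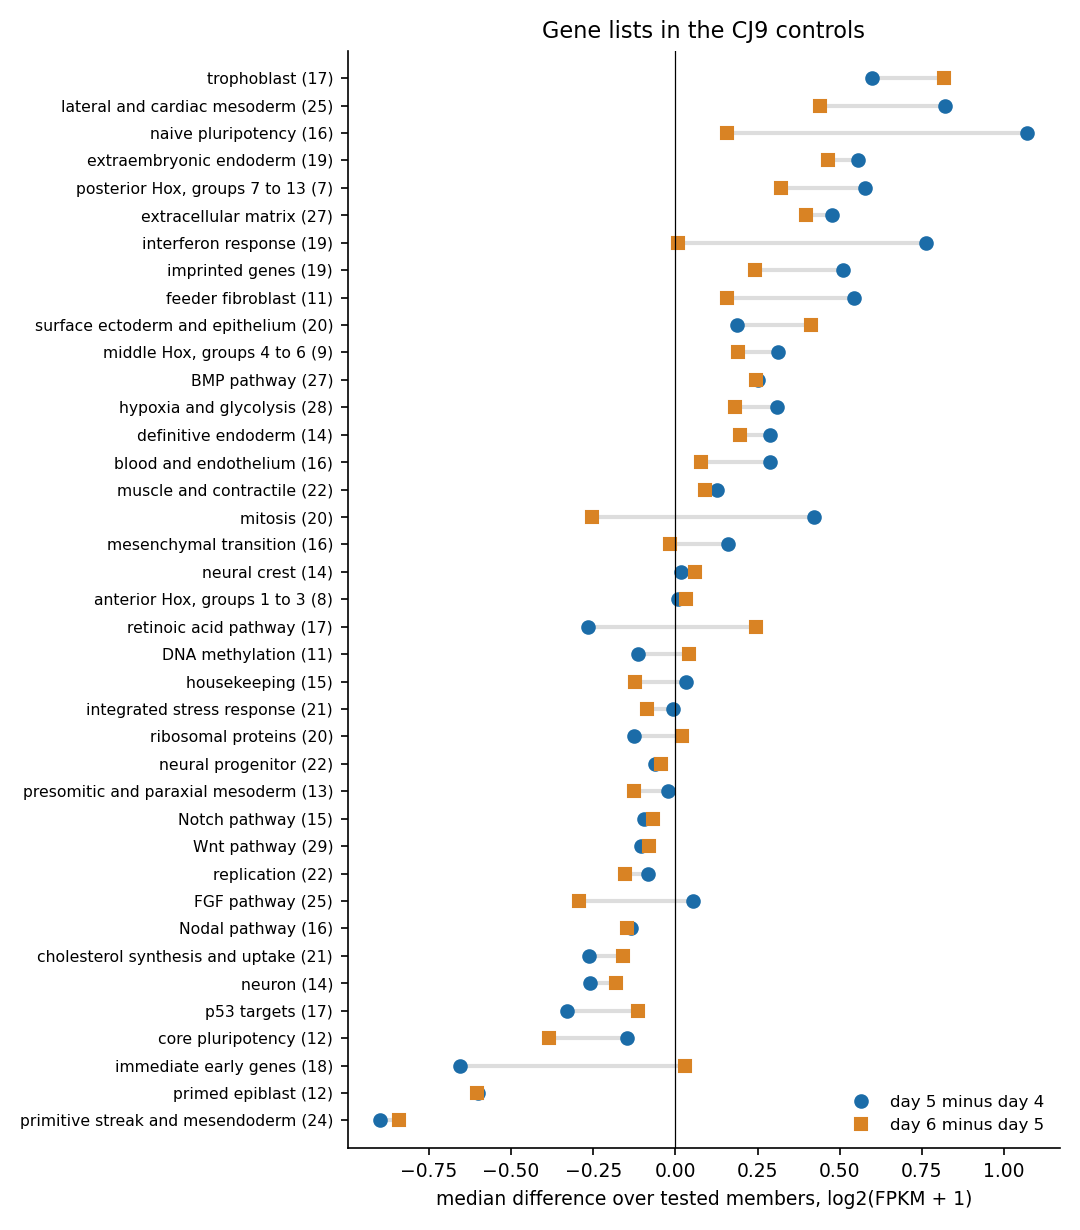
Median difference over the tested members of each gene list, on the log2(FPKM + 1) scale, for day 5 minus day 4 (circles) and day 6 minus day 5 (squares) in the CJ9 controls; the number tested is in brackets. Streak genes have the lowest medians, -0.90 and -0.84; naive pluripotency has the highest first-step median, 1.07, and the trophoblast list the highest second-step median, 0.82.

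Genes of the trophoblast list had called rises at both steps. Of 17 tested members Hand1 and Plac1 rose at the first step, Hand1 by 3.15, beside 5.94% of all entries. At the second step 4 rose, beside 1.61% of all, and none fell at either. Of the 16 at 5 FPKM 12 were in the rising class, beside 6.89% of all, and the medians were 0.60 and 0.82. Esx1, an X-linked homeobox factor of placenta (mm9 chromosome X, 133649936 to 133654865), had 2.15 FPKM at day 4, 8.26 and 9.54 FPKM at day 5 and 57.6 FPKM at day 6. The day-6 library stood far above the day-5 pair, and Esx1 rose by 2.57 ± 0.50 at this step (limma adjusted p = 0.022). Gata2, a zinc finger factor of trophoblast and blood, had 2.66, 2.68, 3.89 and 31.8 FPKM and rose by 2.95 ± 0.30 (limma adjusted p = 0.00148). Ascl2, an imprinted factor of placental precursors, had 1.92, 3.99, 5.52 and 33.8 FPKM and rose by 2.61 ± 0.39 (limma adjusted p = 0.0072). Plac1, a placenta-enriched secreted or membrane protein, had 0.203, 2.86, 6.39 and 18.1 FPKM and rose at both steps (limma adjusted p = 0.0078 and 0.023). Rhox6 and Rhox9, X-linked homeobox genes of placenta and gonad that were named for the size of their rise, had 1.80, 2.69, 4.497 and 51.0 FPKM and 1.37, 1.56, 2.19 and 15.2 FPKM. Rhox6 rose by 3.53 ± 0.50 at the second step, the largest called rise of a named gene there (limma adjusted p = 0.0057). The summed level of the list was 1917, 2591, 3436 and 3785 FPKM in the order of days, most of it from the simple keratins Krt8 (730, 938, 1287 and 1148 FPKM) and Krt18 (580, 692, 1113 and 1195 FPKM). Of the defining markers, Tpbpa and Prl3d1 were listed at 0 in all 4 libraries, Elf5 did not exceed 0.0906 FPKM and Gcm1 lay between 1.02 and 1.37 FPKM. The part of trophoblast cells in these rises was not tested.

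Imprinted genes, which are expressed from a single parental allele and include growth regulators of embryo and placenta, had called rises at both steps. Igf2, insulin-like growth factor 2 (mm9 chromosome 7, 149836673 to 149846940), had 69.5 FPKM at day 4, 453 and 748 FPKM at day 5 and 2294 FPKM at day 6. Its day 6 minus day 4 difference of 5.02 was the largest of the rising class; it rose by 3.05 ± 0.50 at the first step (limma adjusted p = 0.0078), and the second step of 1.98 ± 0.50 was not called (limma adjusted p = 0.057). Igf2r, the receptor that clears Igf2, rose at both steps, with 20.8, 28.7, 31.6 and 60.6 FPKM (limma adjusted p = 0.045 and 0.0057). Mest, a hydrolase-like protein, had 31.0, 94.8, 146 and 183 FPKM and rose at the first step (limma adjusted p = 0.03), and Cdkn1c, a cell cycle inhibitor, had 17.2, 28.7, 45.9 and 98.1 FPKM and rose at the second (limma adjusted p = 0.029). The non-coding RNA Rian was also called at the first step and Dlk1, a secreted Notch-like protein, at the second. Of 19 tested members 4 rose at the first step and 3 at the second, none was called lower, and the medians were 0.51 and 0.24. Of 19 members at 5 FPKM 7 were in the rising class and 2 in the falling class, beside 6.89% and 2.77% of all. Capn6, a calpain-related protein of placenta and embryonic muscle that lies outside the list, had 0.632, 10.4, 9.99 and 19.7 FPKM and rose by 2.78 ± 0.21 at the first step (limma adjusted p = 0.000588).

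Extracellular matrix genes rose at both steps in small number. At the first step Col6a1, Lama4, Fbln2 and Nid1 rose among 27 tested members, beside 5.94% of all entries. At the second Col1a2, Col6a1, Lamb1, Lamc1 and Nid1 rose, beside 1.61% of all. None fell at either step, and the medians were 0.48 and 0.40. Nid1, the basement membrane protein nidogen, had 4.68, 10.1, 11.5 and 26.7 FPKM and rose at each step (limma adjusted p = 0.027 and 0.023). Against the CJ7 day-4 control, with 10.9 FPKM of Nid1, the first step was -0.019. Col1a2, a chain of fibrillar collagen I, had 0.943, 2.55, 2.88 and 11.7 FPKM and rose by 1.77 ± 0.30 at the second step (limma adjusted p = 0.014). Among the markers of feeder fibroblasts 1 of 11 tested members rose at each step, Fbln2 and then Col1a2, beside 5.94% and 1.61% of all entries. Both are also matrix genes, so these calls are not separate from those above. The summed level of the feeder markers was 23.0, 48.6, 41.4 and 72.4 FPKM. Among the defining feeder markers Postn did not exceed 0.975 FPKM and Dcn 1.41 FPKM, whereas Col1a1 had 6.01, 22.9, 15.8 and 33.4 FPKM. Of the 5 feeder list members at 5 FPKM 4 were in the rising class, beside 6.89% of all. The part of such cells in the matrix rises was not tested.

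Called endoderm and interferon genes at the first step were all higher at day 5. Of the definitive endoderm list 3 of 14 tested members rose and none fell, and of the extraembryonic endoderm list 2 of 19 rose and none fell, beside 5.94% of all entries called higher; of 16 blood and endothelium genes 1 rose. Sox17, the SRY-box factor of endoderm and of endothelium, had 0.576, 2.20, 2.72 and 7.75 FPKM and rose at each step (limma adjusted p = 0.046 and 0.037). Sox17 belongs to 3 of the gene lists, so the counts above are not all separate. The CJ7 day-4 control had 2.26 FPKM of Sox17, as high as day 5, and its first-step call was kept in 5 of 15 alternatives (limma adjusted p of 0.036 to 0.885) and its second in 6 of 14 (0.028 to 0.234). Apoe, an apolipoprotein made by visceral endoderm among other cells, rose by 0.91 ± 0.23 at the first step (limma adjusted p = 0.038) against CJ9 day 4, whereas against the CJ7 day-4 control the difference was -0.097. Afp was listed at 0 in all 4 libraries, and Ttr, the visceral endoderm transport protein, at 0 in the first 3 and at 8.34 FPKM at day 6. Hbb-bh1, an embryonic globin of primitive red cells, was likewise listed at 0, 0, 0.233 and 5.95 FPKM. In the interferon list 5 of 19 tested members rose at the first step, beside 5.94% of all entries, and none was called at the second, with medians of 0.76 and 0.01 beside 0.10 and -0.03; Usp18, Oas1a, Oasl2 and Ifi35 were among those that rose. Usp18, a protease that removes ISG15, had 1.498, 8.65, 5.68 and 13.3 FPKM and rose by 1.69 ± 0.32 (limma adjusted p = 0.012). Hox genes were low throughout. Hoxc6 was the 1 called Hox gene, with 0.0627, 2.43, 1.38 and 4.61 FPKM (limma adjusted p = 0.018 at the first step), and Hoxd9 was the 1 Hox gene in the rising class, with 0.663, 2.54, 2.31 and 6.85 FPKM.

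Growth, stress and metabolic genes included both called rises and called falls. Ccnd3, cyclin D3, had 78.2 FPKM at day 4, 160 and 144 FPKM at day 5 and 271 FPKM at day 6, and rose at both steps (limma adjusted p = 0.0097 and 0.026). Its relative Ccnd1 ran the other way, with 59.2, 35.3, 42.8 and 19.01 FPKM, and fell at the second step (limma adjusted p = 0.02). Of 20 mitosis genes only the motor protein gene Kif11 was called at either step, higher at the first, beside 5.94% of all entries. The medians of the mitosis list were 0.42 and -0.25. Cebpb, a leucine zipper factor of stress and differentiation, had 14.4, 22.8, 26.3 and 52.5 FPKM and rose at both steps (limma adjusted p = 0.035 and 0.013). Asns, asparagine synthetase, was a day-5-high entry, with 51.1, 123, 121 and 57.1 FPKM. Among 21 stress response genes 3 rose (Asns, Cebpb and Slc7a11) and 3 fell (Atf3, Sesn2 and Herpud1) at the first step. Over all entries 5.94% rose and 1.38% fell at that step. P4ha1, a collagen prolyl hydroxylase induced by hypoxia, had 6.57, 15.6, 15.7 and 24.6 FPKM and rose at the first step (limma adjusted p = 0.016), as did Hk1 and Hif1a among 28 hypoxia and glycolysis genes.

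Genes that changed most at day 6 included some outside these lists. Ndrg1, a stress- and hypoxia-responsive protein, had 4.93, 5.27, 4.13 and 31.2 FPKM and rose by 2.50 ± 0.26 (limma adjusted p = 0.00148). Cebpa, a leucine zipper factor of fat, myeloid and placental cells, had 2.20, 2.38, 4.97 and 30.7 FPKM and rose by 2.82 ± 0.61 (limma adjusted p = 0.032). Both were low until day 5. Igfbp3, an IGF-binding protein, had 489, 428, 323 and 72.8 FPKM and fell by 2.34 (limma adjusted p = 0.037), and Trim67 and Ppp4r4 fell to 1.83 and 2.11 FPKM at day 6, against 10.9 to 16.8 FPKM and 11.5 to 17.96 FPKM at day 5.

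Entries high at day 5 alone were of another kind. Against the mean of days 4 and 6, limma called 505 of the 14942 entries higher at day 5 (3.38%) and 40 lower (0.268%). Leaving out day-5 replicate 1 or 2 gave 353 or 69 calls in place of 545, and among entries with a GC value 134 were called after the trend with GC content and transcript length was removed from each library, in place of 526 without that step. Rpl39, a ribosomal protein (mm9 chromosome X, 34622515 to 34625179), had 7.26 FPKM at day 4, 202 and 502 FPKM at day 5 and 11.8 FPKM at day 6. The day-5 libraries stood far above both other days but differed from each other by 1.31 on the log2 scale, and the difference from the mean of days 4 and 6 was 4.96 ± 0.39 (limma adjusted p = 0.000292). Cox2, here the mitochondrially encoded subunit of cytochrome oxidase on chromosome M, had 86.8, 485, 1282 and 74.9 FPKM, and Uqcrb, a subunit of respiratory complex III, 4.75, 28.9, 136 and 5.56 FPKM. For Uqcrb the day-5 pair differed by 2.20. Atad1, a membrane ATPase, had 1.18, 11.7, 15.1 and 1.96 FPKM, Vdac3, a mitochondrial outer membrane channel, 11.6, 59.9, 85.8 and 13.6 FPKM, and Eif3e, a translation initiation subunit, 3.97, 22.6, 30.4 and 4.84 FPKM. Gdi2, a regulator of Rab proteins, had 35.8, 109, 147 and 38.4 FPKM. The list of ribosomal proteins holds neither Rpl39 nor Rpl22l1, a ribosomal protein gene that was also day-5-high. None of its 20 tested members was called at either step, with medians of -0.13 and 0.02.

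The day-5-high entries were also high in the knockdown libraries of the same experiment. The CJ9 controls chose these entries, so only the knockdown libraries and the other groups are free of the choice. Both shFendrr libraries lay above all 13 libraries that are neither of that experiment nor CJ9 controls for 70 of the 79 entries. The share of all entries with that order was not computed, and those 13 include other lines and retinoic acid cultures. The count of 70 therefore has no background to be read against. The library medians of the 79 were 4.11 and 4.22 on the log2(FPKM + 1) scale in the shFendrr libraries and at most 2.91 in those 13 (plot of library medians). Median GC content was 41.7% over the 55 day-5-high entries with a known transcript sequence, which are 69.6% of the class and 87.3% of its named entries; too few of the 79 have a value, so a check over the whole class is void. The corresponding medians were 53.9% in the rising class, 53.4% in the falling class and 50.3% in entries of no class. Over 13052 tested entries with a GC value, the median day 5 minus day 4 difference was 0.33 in the lowest of 5 GC bins and -0.03 in the highest, and that of day 6 minus day 5 was -0.26 and 0.16. The day-5 pair itself showed a gradient of the same kind, 0.13 and -0.07 for replicate 2 minus replicate 1. Between day 6 and day 4 the same bins had medians of 0.07 and 0.10. The part of GC content in the day-5 values was not tested; with its trend removed 19 entries were in the day-5-high class in place of the 55 with a GC value, and without day-5 replicate 1 there were 181.

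**Figure D4:**
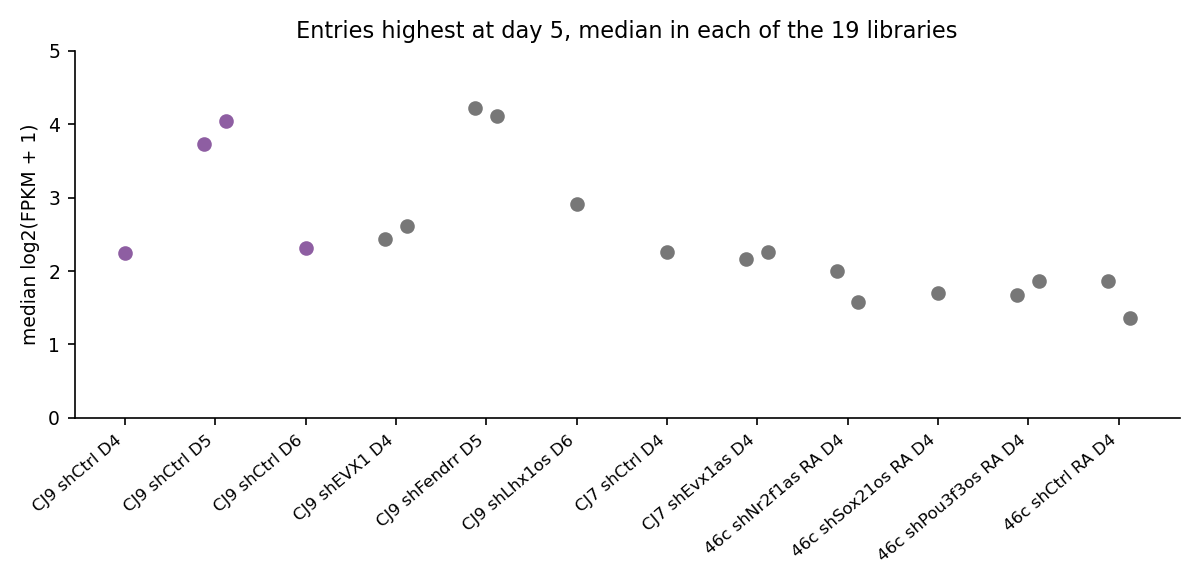
Median log2(FPKM + 1) of the 79 entries high at day 5 in each of the 19 libraries, with the CJ9 controls in purple; each point is a library. The 4 libraries of the Fendrr experiment, CJ9 shCtrl D5 and CJ9 shFendrr D5, lie between 3.74 and 4.22, and the other 15 between 1.36 and 2.91; the CJ9 controls chose the entries.

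The knockdown libraries give the same days and experiments in cultures that the controls do not share, although day, experiment and hairpin target cannot be told apart in them either. In the controls 887 and 206 entries were called at the first step, as above, and in the knockdown libraries 1555 were higher at day 5 than at day 4 (10.4%) and 916 lower (6.13%). At day 6 against day 5, 446 were higher (2.98%) and 1045 lower (6.99%) in the knockdown libraries. By the class rules on the knockdown libraries, 540 of 9591 entries were rising (5.63%), 464 falling (4.84%) and 81 high at day 5 (0.845%). Of the rising classes 214 entries were shared, which is 32.8% of the control class and 39.6% of the knockdown class. The falling classes shared 101 entries, 38.5% of the control class and 21.8% of the knockdown class, and the day-5-high classes shared 46, 58.2% and 56.8%. Of the 652 rising entries, 598 also lay higher at day 5 than at day 4 in the knockdown libraries, where 53.7% of all 9465 entries did, and 451 lay higher at day 6 than at day 5, where 38.7% did. Of the 262 falling entries, 225 and 195 lay lower at these steps, beside 46.2% and 61.3% of all. The median day 6 minus day 4 difference of the rising entries was 1.45 in the controls and 0.89 in the knockdown libraries, and that of the falling entries -1.45 and -1.05.

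T and Pou5f1 lay close together in both arms at day 6. At day 6 T had 20.9 FPKM in the control and 24.2 FPKM in the shLhx1os library, and Pou5f1 had 166 and 176 FPKM. At day 4 and day 5 T had 326 FPKM and 114 and 128 FPKM in the controls, against 193 and 270 FPKM with shEVX1 and 195 and 88.1 FPKM with shFendrr. Some genes that were high at day 6 in the control were not so in the shLhx1os library. Hand1 had 204 FPKM in the control and 10.5 FPKM with shLhx1os, Gata2 31.8 and 2.51 FPKM, Rhox6 51.0 and 3.98 FPKM, Plac1 18.1 and 1.75 FPKM, and Cfc1 57.5 and 0.808 FPKM. Igf2 was high in both, with 2294 and 930 FPKM. Krt18 and Col4a1, also of the rising class, were higher with shLhx1os, with 1195 and 2097 FPKM and 112 and 274 FPKM. Of the 652 rising entries, 291 were also at least 2-fold higher at day 6 than at day 4 in the knockdown libraries, beside 8.42% of all 9465. Among genes that fell in the controls, Nefl had 5.60 FPKM in the control and 63.7 FPKM with shLhx1os. Cnn1 had 2.55 and 44.0 FPKM, Myl9 5.40 and 51.6 FPKM, and Actc1 0.607 and 9.53 FPKM. The second step of the controls minus that of the knockdown libraries was 2.60 ± 0.43 for Hand1, 2.83 ± 0.43 for Gata2 and -2.09 ± 0.32 for Nefl, none of them past the threshold (limma adjusted p = 0.105, 0.0845 and 0.0845). Across all 14942 entries limma called 0 differences between the arms at either step, with 763 and 1444 at an unadjusted p under 0.05.

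**Figure D5:**
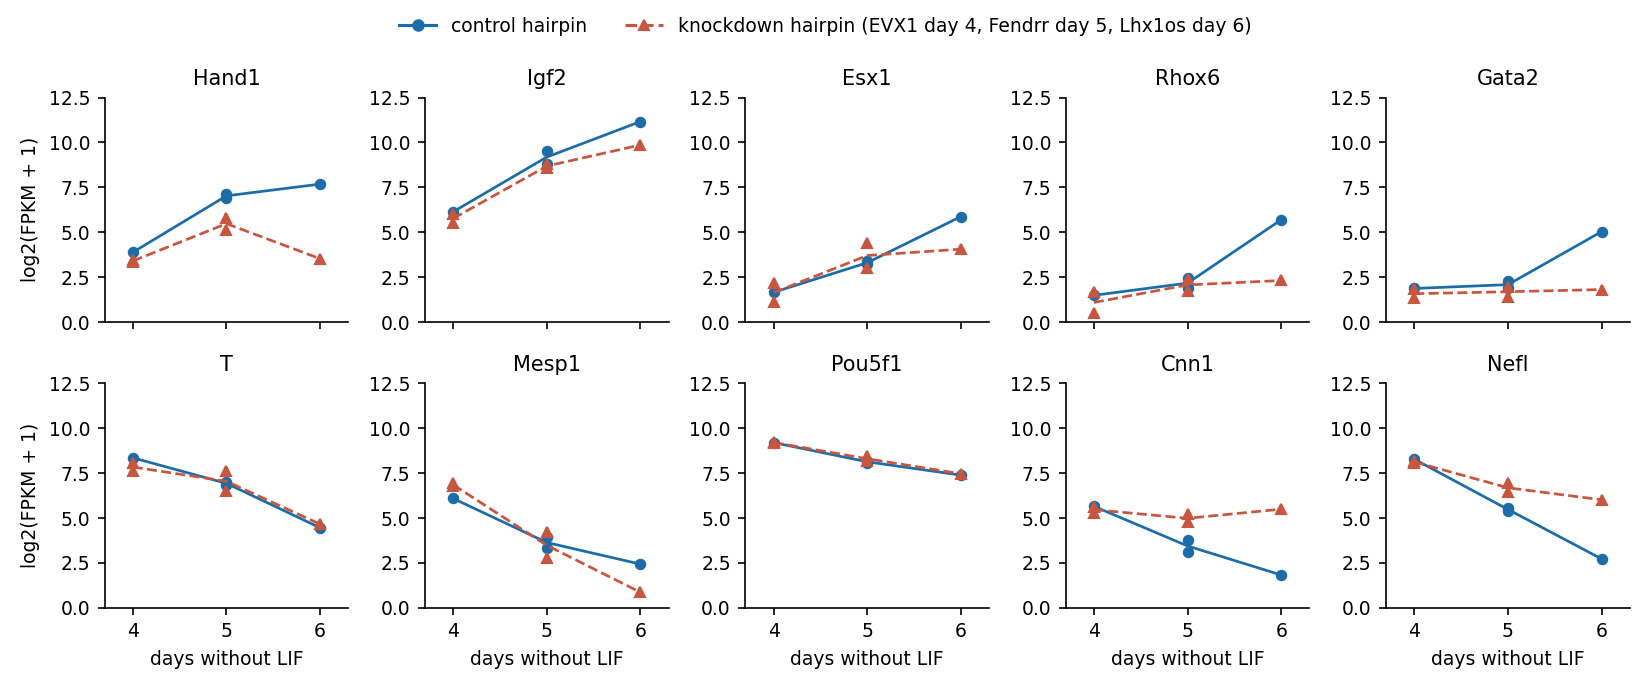
Level of 10 named genes, as log2(FPKM + 1), against days without LIF in the CJ9 control libraries (circles, solid lines) and the knockdown libraries of the same experiments (triangles, broken lines); each point is a library and lines join day means. T and Pou5f1 run close together in both arms, whereas at day 6 Hand1, Rhox6 and Gata2 are higher and Cnn1 and Nefl lower in the control than in the shLhx1os library.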

How the data were processed

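RNA-seq libraries of mouse embryonic stem cells were analysed from 1 table of FPKM values that the authors deposited, with 38424 entries, 11588 of them unnamed assembled loci. Among tools, CASAVA and TopHat2 2.0.11 are named, per the submitters' processing notes, and among builds mm10 and mm9. None of the sources used here says how FPKM were estimated, or with which annotation and strand setting. The 116 entries on random chromosomes, and the 4.6% of 18913 coding symbols that end within 1000 bp of their GRCm38 position, place the coordinates on mm9; GRCm38 served for promoter sequence, GC content and length. Antisense or overlapping genes may share reads. Without counts, depth is unknown and no counting interval is given.

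Values were analysed as log2(FPKM + 1), which understates changes of low genes. limma 3.58.1 in R 4.3.3 was fitted to all 19 libraries with a mean for each of 12 groups and a variance prior with a trend; the 7 groups of 2 leave 7 residual degrees of freedom, and single libraries were assumed to vary like them. Tests were two-sided, adjusted by Benjamini-Hochberg over all entries tested, with a threshold of 0.05. Day 6 against day 4 and the classes are sizes, with no test.

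The members and gene lists were chosen with earlier results of these data known. Genes named were the markers, the 10 largest called rises and falls of each step, the 10 leading members of each class, and up to 4 members of each list with the largest day 6 minus day 4 difference, plus list members high at day 5. Unnamed, predicted and accession-only entries were left out of these rankings. Other list members, called or given by level, were chosen after seeing their values, and so were the GC, CCAAT and TATA boxes. Some genes are not reported here.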

Additional observations from a re-analysis of the deposited data

How the results depend on the processing

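Results kept their direction under most settings. Of the values of single genes recomputed under the alternatives, 1926 kept direction and side of the threshold, 572 were no longer called, 9 became called and 6 reversed. All 6 reversed with the CJ7 day-4 control in place of the CJ9 one (day 5 minus day 4: Mesp1 0.68, Tcl1 -0.36, Esrrb -0.55, Snai1 0.042, Nid1 -0.019, Apoe -0.097). The cause was not tested.

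For day 5 against day 4 (1093 calls), that control gave 2843, both day-4 controls as a group 2683, the 9 CJ9 libraries 124, the 4 controls alone 0, and leaving out a day-5 library 406 to 551; with the GC and length trend removed 425 were higher and 359 lower, and with libraries rescaled by the median ratio 695 and 330, beside 887 and 206. For day 6 against day 5 (540), a pseudocount of 0.1 gave 312, no filter 853, the 9 libraries 13, the 4 controls 0, the GC trend removed 336, and leaving out a day-5 library 117 to 381. For day 5 against the mean of days 4 and 6 (545), the same settings gave 348, 967, 37, 0, 134 and 69 to 353, the CJ7 control 1230 and both day-4 controls 824. For the knockdown libraries, day 5 against day 4 (2471) had 911 calls in the 9 CJ9 libraries and 570 to 3052 without a replicate, and day 6 against day 5 (1491) had 2 and 309 to 3451. Fewer libraries leave 3 residual degrees of freedom in the 9-library fit and 1 in the 4-library fit.

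Day 6 against day 4 (1103 entries) and the rising class were within 1.5 times throughout. The falling class was 406 with a floor of 1 FPKM in place of 5, beside 262. The day-5-high class (79) was 96 to 181 without a day-5 library and, of the 55 with a GC value, 19 with the GC trend removed. The day-5-low class (0) was 6 with a pseudocount of 0.1, 6 with the lower floor, 1 with median ratios, 5 with the CJ7 control, 1 with both day-4 controls, 1 with the GC trend removed and 6 to 14 without a day-5 library. Of 85 named first-step calls, 20 held in all fits but that of the 4 controls, among them Hand1, Igf2, Bmp4 and Nefl; of 56 second-step calls only Nefl held. The GC alternatives and the crossed pairing were chosen after seeing the data.

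The main fit did not pair libraries by replicate number. Between different experiments, the replicate 2 minus replicate 1 differences correlated at -0.147 (shEVX1 and shFendrr) and -0.025 (shEVX1 and the day-5 controls). Between shFendrr and the day-5 controls, which share an experiment, they correlated at 0.35. With the number as a replicate block, calls were 988, 491 and 474 in the controls and 2313 and 1378 in the knockdown libraries. With crossed pairs of shEVX1 and shFendrr, 2354 calls were made, beside 2313 with the labelled pairs.

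Day 4 and day 6 have 1 library each, depth is unknown, and low genes are the least precise.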
